A study of Mus musculus with 13 samples.

Results

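The renin-angiotensin genes followed here are 6 genes, taken by symbol from the 46958 rows of a count table: renin (Ren1), angiotensinogen (Agt), angiotensin-converting enzyme (Ace), the type 1a angiotensin receptor (Agtr1a), glutamyl aminopeptidase (Enpep) and the prorenin receptor (Atp6ap2). All 6 were in the table, and all 6 were among the 16738 genes that passed the filter on low counts. Their reads were counted in RNA from kidney glomeruli, the tufts of capillaries where blood is filtered, which had been isolated on magnetic beads. All mice were 6 months old, on a mixed background of C57/BL6, 129/SV and BALB/c. The 3 genotypes were LCDD (also labelled kFRA, 4 libraries), DH-LMP2A (4 libraries) and wild type (WT, 5 libraries). A library was a pool of 3 mice, except WT replicates 3, 4 and 5, which were single mice. LCDD is short for light chain deposition disease, a kidney disease caused by antibody light chains from a single B cell clone. By its title the series asks how toxic such free light chains are to the glomerulus. The labels describe neither the kFRA nor the DH-LMP2A allele. As background on the published model of these names, DH-LMP2A mice carry LMP2A, a viral protein that stands in for B cell receptor signals, at the immunoglobulin heavy chain locus, and the disease light chain was studied on that background; the labels do not say whether the LCDD mice carry it.

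Renin is an enzyme released by juxtaglomerular cells, which sit in the wall of the arteriole at the entrance of the glomerulus. It cuts angiotensinogen, made mainly in the liver and in lesser amounts in the proximal tubule, to angiotensin I, and angiotensin-converting enzyme trims that to angiotensin II. Angiotensin II acts through the type 1 receptor, on mesangial cells among others, and glutamyl aminopeptidase, abundant on podocytes and proximal tubule cells, shortens it to angiotensin III. The prorenin receptor binds renin and its precursor and is also an accessory subunit of the vacuolar proton pump (V-ATPase).

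Total counts were 18604929 to 26544422 in LCDD, 17274426 to 26143996 in DH-LMP2A and 16687509 to 30587890 in WT. Podocyte markers dominated the cell type lists in most libraries, as the tissue label has it: the 12 markers summed to 7929 to 33938 counts scaled to a library of 1000000 (CPM) in LCDD, 18028 to 34324 in DH-LMP2A and 16541 to 36464 in WT. The titles carry a 6-digit code with 4 values, called the title code below. Its meaning is not stated, and it moved with the cell markers. Libraries of the first and second codes (LCDD and DH-LMP2A replicates 1 and 2, WT replicate 1) had podocyte sums of 7929 to 22943 CPM, against 26822 to 36464 CPM in the other 8. Proximal tubule markers (16 of 16 tested, none at 0 in a genotype) summed to 613 to 2205 CPM in LCDD, 608 to 4208 in DH-LMP2A and 126 to 3494 in WT. The genotypes also differed in sex composition, since 4 Y-linked genes summed to 18.0 to 220 CPM in LCDD, 68.3 to 223 in DH-LMP2A and 0 to 27.0 in WT. In these bulk libraries, fewer cells of a type and less RNA per cell cannot be told apart.

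Levels of the 6 genes were first compared per length, as CPM per kilobase of exon (RPKM), over all 13 libraries. Enpep was the most abundant, with a mean level of 403 ± 184 RPKM (SD, n = 13), and exceeded Agtr1a in 11 of 13 libraries. Agtr1a had a level of 142 ± 35.7 RPKM and Ren1 of 128 ± 84.4 RPKM (SD, n = 13). These neighbours did not separate, since Agtr1a exceeded Ren1 in 8 of 13 libraries. Atp6ap2 followed at 31.7 ± 5.09 RPKM, below Ren1 in 12 of 13 libraries. Ace had a level of 7.35 ± 2.79 RPKM and Agt of 0.511 ± 0.818 RPKM (SD, n = 13), each below the gene before it in 13 of 13 libraries. The glomerular preparations thus held much RNA for the receptor and for an enzyme that shortens angiotensin II, and little for the renin substrate.

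Variation between libraries, measured as the highest over the lowest CPM, was 17.7-fold for Ren1 and 8.87-fold for Enpep. It was 3.10-fold for Ace, 2.00-fold for Agtr1a and 1.91-fold for Atp6ap2. Agt ran from 0 to 176 counts, and a fold is not given for it.

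**Figure D1:**
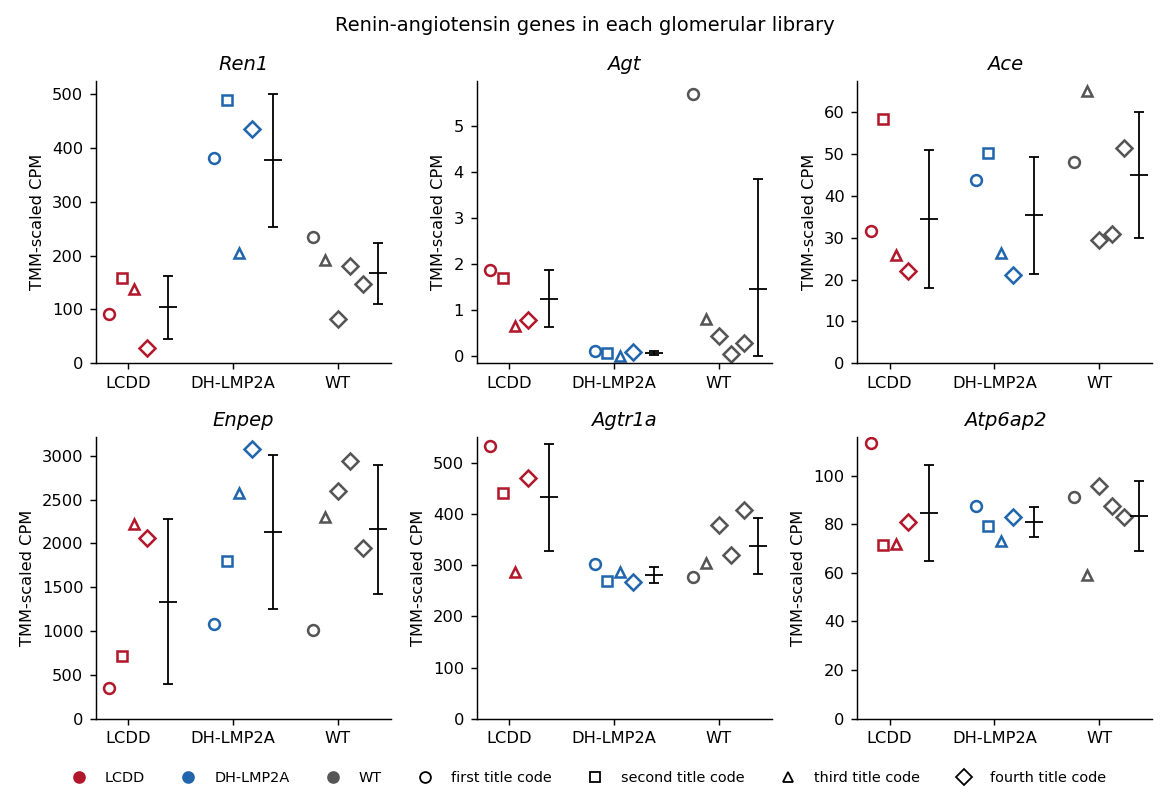
TMM-scaled CPM (linear axes) of the 6 genes in each library, coloured by genotype and shaped by title code; the bar beside each group is the mean ± SD, with its lower end stopped at 0. All 4 DH-LMP2A libraries lie above all 4 LCDD libraries for Ren1, and below them for Agt, while Enpep is lowest within each genotype in the library of the first title code.

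LCDD was compared with DH-LMP2A in an edgeR quasi-likelihood fit of all 13 libraries. None of the 6 genes was called at an adjusted p under 0.05, against 2.00% of all genes tested, while 3 of 6 had an unadjusted p under 0.05 (Ren1, Agt and Agtr1a), against 13.1% of all genes. DESeq2 called the same 3, and called 823 of the 19116 genes it gave an adjusted p. LCDD and DH-LMP2A have 1 library each under every title code, and the code was taken to pair them. With the code as a replicate block, edgeR called 2 of 6, Ren1 as lower and Agt as higher in LCDD, against 6.10% of all genes. Ren1 and Agt were also the 2 of 6 whose libraries did not overlap between these genotypes, against 7.62% of all genes tested.

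**Figure D2:**
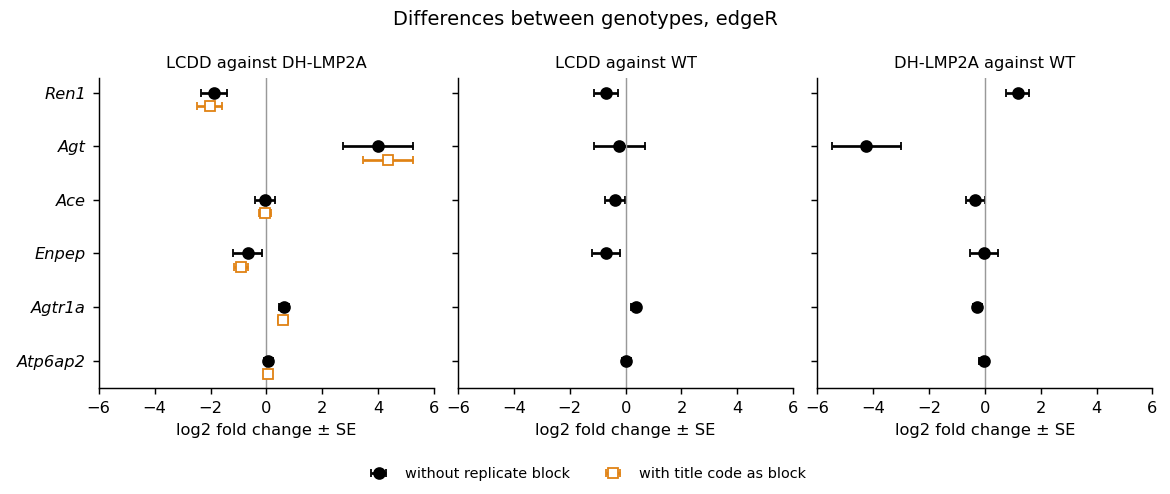
Log2 fold changes ± SE of the 6 genes in the 3 comparisons, from edgeR fits of all 13 libraries; filled circles are without the replicate block and open squares, shown for LCDD against DH-LMP2A, have the title code as block. The values for Ren1 (-1.87 and -2.03) and Agt (4.01 and 4.34) lie farthest from 0 in the first panel, and the other 4 genes lie within 1 of it.

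Ren1 (chromosome 1, 133350510 to 133360325, plus strand, GRCm38, a protein-coding gene of 10 exon blocks) encodes renin. Its promoter is shown because Ren1 had the widest range between libraries of the 5 genes with counts in every library. The 250 bases before the RefSeq start site (GRCm38.p6, plus strand, chr1:133350424-133350673) read as follows, 5′ to 3′, with TATAAA, the letters bound by the TATA-binding protein, in capitals, 29 bases before the start:
Ren1: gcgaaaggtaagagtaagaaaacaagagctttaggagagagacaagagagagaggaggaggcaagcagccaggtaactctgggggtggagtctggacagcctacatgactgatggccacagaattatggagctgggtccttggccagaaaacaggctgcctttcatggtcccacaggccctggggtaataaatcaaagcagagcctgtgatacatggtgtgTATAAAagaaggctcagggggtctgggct
TATAAA and TGACGT, the core of the cyclic AMP response element, were searched on both strands of this window in 32817 RefSeq promoters, and neither overlapped the other in the promoters shown. TATAAA was in 12.4% of them and TGACGT in 6.46%. A match is letters only, and the sequence is that of the C57BL/6J reference, not of these mixed mice. The deposited gene model begins inside this window.

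Ren1 had 90.7, 158, 137 and 27.6 CPM in LCDD replicates 1 to 4, and 381, 489, 204 and 435 CPM in DH-LMP2A replicates 1 to 4. WT replicates 1 to 5 had 234, 192, 82.2, 181 and 148 CPM. Every LCDD library was below every DH-LMP2A library, and LCDD replicate 4 was the lowest of all 13. WT lay between, and overlapped LCDD but reached into the DH-LMP2A range only with replicate 1. The means were 103 ± 58.0 CPM in LCDD (SD, n = 4), 377 ± 124 in DH-LMP2A (SD, n = 4) and 167 ± 56.8 in WT (SD, n = 5).

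The log2 fold change of Ren1 in LCDD against DH-LMP2A was -1.87 ± 0.47 (SE, edgeR adjusted p = 0.0631, not called). With the replicate block it was -2.03 ± 0.45 (SE, edgeR adjusted p = 0.0296). Within the title codes, in ascending order, the difference in log2 CPM was -2.07, -1.63, -0.57 and -3.97, so Ren1 was lower in LCDD under 4 of 4 codes. The 4 Y-linked genes summed to 174, 21.1, 220 and 18.0 CPM in LCDD replicates 1 to 4. In DH-LMP2A replicates 1 to 4 the sums were 111, 223, 68.3 and 126 CPM, so sex composition also differed within the pairs. With the mean log2 CPM of these genes as a further covariate beside the block, the Ren1 value was -1.88 (edgeR adjusted p = 0.0600, not called). The part of sex composition in the Ren1 difference was not tested beyond this covariate. Ren1 counts carry a limit of their own. Some laboratory strains, 129 among them, have Ren2, a near-identical second renin gene, and the table has 0 rows for it. Reads from the 2 genes cannot be told apart, so the Ren1 level and its differences between these genotypes of mixed background are uncertain.

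Genes of renin-producing cells and of renin control were read from a list of 20, of which 19 were tested. In LCDD against DH-LMP2A, edgeR called 1 of 19 lower and 0 higher, against 0.693% of all genes called lower and 1.30% called higher. With the replicate block 4 of 19 were called lower and 0 higher, beside 478 lower and 543 higher of all 16738 genes. Of the 19, 6 had an unadjusted p under 0.05, in either direction, against 13.1% of all genes. The median log2 fold change of the list was -0.15, beside -0.0061 over all genes tested. The gene called in both fits was Adora1, the adenosine A1 receptor, through which adenosine inhibits renin release. Adora1 had 3.61, 4.03, 3.39 and 1.42 CPM in LCDD replicates 1 to 4 and 9.02, 6.37, 6.28 and 8.42 CPM in DH-LMP2A replicates 1 to 4. All LCDD libraries were below all DH-LMP2A libraries, and edgeR put the log2 difference at -1.27 ± 0.28 (SE; adjusted p = 0.0385, and 0.0247 with the block).

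The other 3 called with the block were named after their values were seen. Rgs5, a regulator of G protein signalling in pericytes and renin cells, averaged 154 ± 49.7 CPM in LCDD and 349 ± 109 CPM in DH-LMP2A (SD, n = 4 each). Its log2 fold change without the block was -1.18 ± 0.31 (edgeR SE; adjusted p = 0.0787), and with it the adjusted p was 0.0198. Foxd1, a transcription factor of the stromal lineage that gives rise to renin cells and also present in podocytes, gave a log2 fold change of -0.73 without the block (edgeR adjusted p = 0.420) and of -0.90 with it (edgeR adjusted p = 0.0368). Adcy5, an adenylyl cyclase that makes cyclic AMP, gave -0.67 (edgeR adjusted p = 0.568) and -0.81 (edgeR adjusted p = 0.0399). The 3 most abundant genes of the list were not called: Gnas, the stimulatory G protein subunit, at 1409 against 1330 CPM, Adcy6, another adenylyl cyclase, at 432 against 417 CPM, and Gja5, the connexin that couples juxtaglomerular cells, at 314 against 236 CPM. Further genes of the list, among them Gucy1a3, Rbpj and Ptgir, also had higher means in LCDD than in DH-LMP2A, so the list went both ways.

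Ren1 was next matched by pattern. Over the 13 libraries, the 5 genes whose log2 CPM had the highest Pearson correlation with Ren1, of 12774 ranked, were Slc6a17 (0.94), Hspb7 (0.92), Adora1 (0.91), Kcnk3 (0.90) and Akr1b7 (0.89). These values were picked as the highest and are a description without a test. Adora1 and Akr1b7 are both on the renin-cell list, and Akr1b7, an aldo-keto reductase, is a known marker of renin cells. Akr1b7 had 12.8 ± 5.17 CPM in LCDD, 24.7 ± 9.04 in DH-LMP2A (SD, n = 4 each) and 15.3 ± 5.48 in WT (SD, n = 5), and its log2 fold change of -0.95 ± 0.37 (SE) against DH-LMP2A was not called (edgeR adjusted p = 0.262, and 0.101 with the block).

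**Figure D3:**
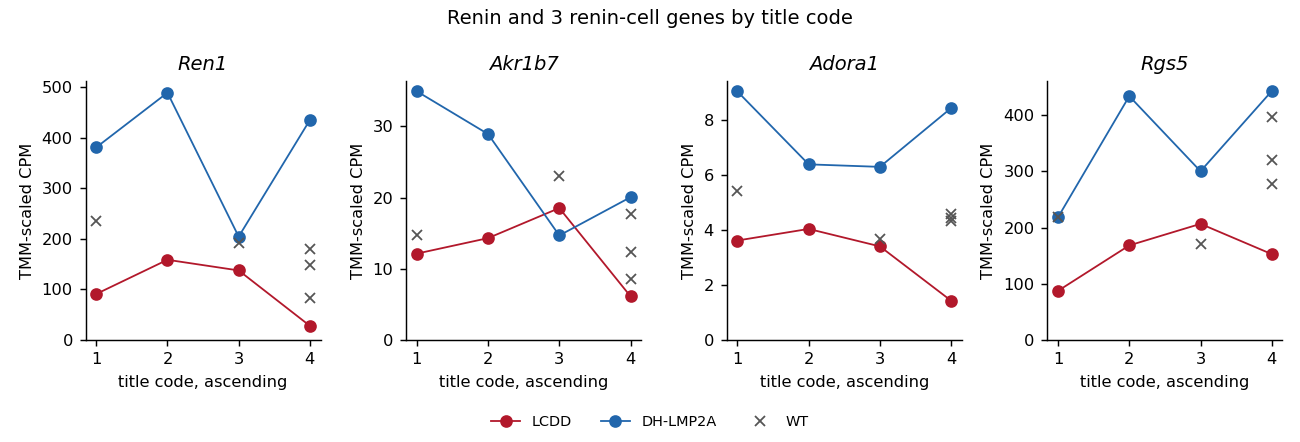
TMM-scaled CPM (linear axes) of Ren1, Akr1b7, Adora1 and Rgs5 against the title code in ascending order, with lines joining the LCDD and the DH-LMP2A libraries and crosses for WT. LCDD lies below DH-LMP2A under every code for Ren1, Adora1 and Rgs5, and under 3 of 4 codes for Akr1b7, where the third code has 18.5 CPM in LCDD and 14.7 CPM in DH-LMP2A. The genes beside Ren1 were picked for a call or for a pattern like that of Ren1. Other genes of their list had higher means in LCDD.

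Markers of arteriolar smooth muscle, the tissue next to the renin cells, are given beside Ren1. Of 8 markers, 7 were tested, and Actg2, at 0 in every LCDD library and at 0 to 2 counts elsewhere, was not. The 8 summed to 1101, 1280.2, 1893 and 1948 CPM in LCDD replicates 1 to 4 and to 1212, 1736, 2012 and 2143 CPM in DH-LMP2A replicates 1 to 4, with 1036 to 1804 CPM in WT. Mylk, a myosin kinase, made up most of these sums, with a mean of 1137 CPM in LCDD and 1186 CPM in DH-LMP2A. By the mean log2 CPM of the list, which weights the genes alike, LCDD had 3.74, 4.19, 4.71 and 4.11 and DH-LMP2A had 4.12, 5.10, 4.89 and 5.22 in replicates 1 to 4. In LCDD against DH-LMP2A the median log2 fold change of the list was -0.71, and none was called. An unadjusted p under 0.05 was found for 4 of 7, against 13.1% of all genes. With the block 1 of 7 was called lower, beside 478 of all 16738 genes. That one was Myh11, the smooth muscle myosin, at 60.5 ± 45.6 CPM in LCDD and 149 ± 59.3 CPM in DH-LMP2A (SD, n = 4 each; edgeR adjusted p = 0.227, and 0.0376 with the block). The part of arteriolar tissue in the Ren1 difference was not tested.

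Agt (chromosome 8, 124556534 to 124569706, minus strand, 5 exon blocks) encodes angiotensinogen. Its promoter is shown because the gene had few or no reads in every DH-LMP2A library. The 250 bases before the RefSeq start site (GRCm38.p6, minus strand, chr8:124569707-124569956) read as follows, 5′ to 3′, with TATAAA in capitals, 30 bases before the start:
Agt: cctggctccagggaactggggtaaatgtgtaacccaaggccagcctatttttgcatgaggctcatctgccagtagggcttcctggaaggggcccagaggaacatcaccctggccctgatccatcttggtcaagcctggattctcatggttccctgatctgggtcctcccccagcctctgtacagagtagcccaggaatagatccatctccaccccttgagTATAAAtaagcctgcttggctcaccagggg
TGACGT was not found in this window.

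Agt had 49, 45, 12 and 20 counts in LCDD replicates 1 to 4 and 3, 2, 0 and 2 counts in DH-LMP2A replicates 1 to 4. WT replicates 1 to 5 had 176, 13, 11, 1 and 7 counts. All 4 DH-LMP2A libraries were thus at or under a floor of 3 counts, as was 1 of 5 WT libraries, and no LCDD library was. Summed over libraries, LCDD had 126 counts and DH-LMP2A had 7. The ratio of these sums, corrected for library size, was 17.4 (95% interval 8.22 to 44.3, exact conditional binomial). For WT, with 208 summed counts, the ratio to DH-LMP2A was 23.4 (95% interval 11.1 to 58.8). These intervals cover counting error only, and WT replicate 1 alone gave 176 of the 208 counts.

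The edgeR log2 fold change of Agt in LCDD against DH-LMP2A was 4.01 ± 1.25 (SE, adjusted p = 0.141, not called), and 4.34 ± 0.89 with the replicate block (edgeR adjusted p = 0.0214). These fitted values depend on the small number added to each count. From the first title code to the fourth, LCDD minus DH-LMP2A in log2 CPM was 3.32, 3.49, 3.12 and 2.33, so LCDD was higher under 4 of 4 codes. In DH-LMP2A against WT the edgeR log2 fold change was -4.24 ± 1.23 (SE, adjusted p = 0.167, not called), and in LCDD against WT it was -0.23 ± 0.91 (SE, adjusted p = 0.974). Without WT replicate 1 the LCDD against WT value turned to 1.72 (edgeR adjusted p = 0.175), and that of DH-LMP2A against WT was -2.29 (edgeR adjusted p = 0.164). When only DH-LMP2A and WT were fitted, Agt did not pass the filter on low counts. It entered their comparison here through the LCDD libraries.

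The kidney's own angiotensinogen comes from the proximal tubule, so the Agt values are set beside the proximal tubule markers. LCDD replicates 1 to 4 had marker sums of 1968, 2205, 613 and 850 CPM, and Agt was higher in the first pair of these (1.88 and 1.69 CPM) than in the second (0.646 and 0.789 CPM). WT replicate 1 had the highest sum of its genotype, 3494 CPM, and the highest Agt, 5.69 CPM. DH-LMP2A replicates 1 to 4 had sums of 4208, 3541, 1511 and 608 CPM, the first of them the highest of all 13, with Agt at no more than 3 counts in each. With the tubule markers as a covariate the log2 fold change in LCDD against DH-LMP2A was 4.74 (edgeR adjusted p = 0.00221), and in DH-LMP2A against WT it was -5.33 (edgeR adjusted p = 0.0029). The second value is limited, since Agt passed the filter through the LCDD libraries and WT replicate 1 held most of the WT counts. The markers include Kap, an androgen-induced gene, so their sums and this covariate can also vary with sex composition. The part of tubule content in the Agt values was not tested beyond this covariate.

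By pattern over the 13 libraries, the named genes most like Agt were Nkd2 (Pearson correlation 0.91), Eno1 (0.89), Plk2 (0.87) and Sfn (0.86), and the third of the 5 highest was a gene whose symbol stands as a date in the deposited table. None of them is on the angiotensin or tubule lists.

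**Figure D4:**
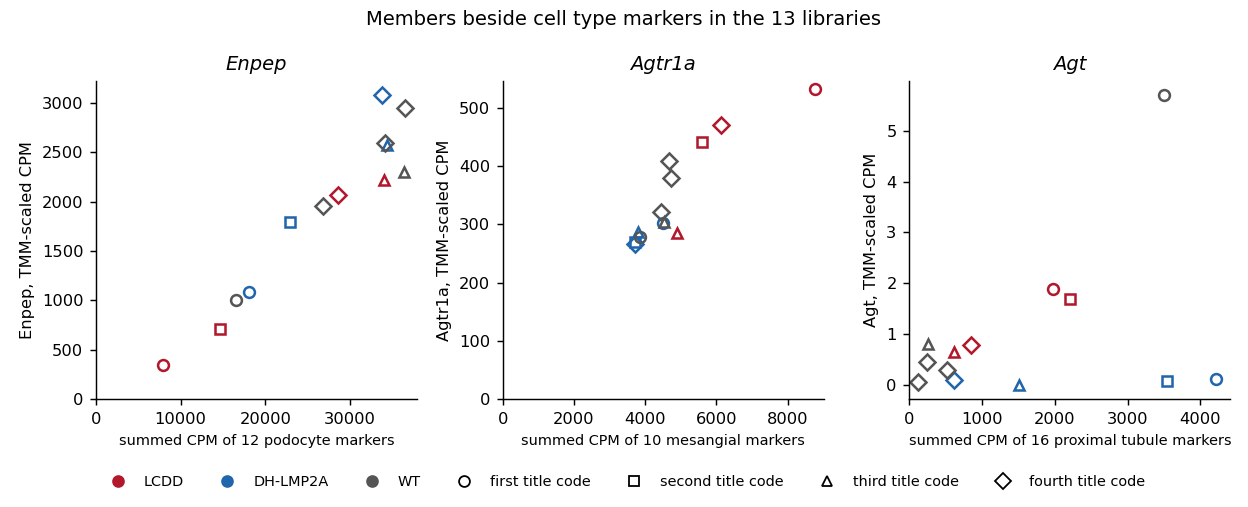
TMM-scaled CPM (linear axes) of Enpep, Agtr1a and Agt against the summed CPM of podocyte, mesangial and proximal tubule markers in the 13 libraries, coloured by genotype and shaped by title code. Enpep is lowest (348 CPM) where podocyte markers are lowest (7929 CPM), Agtr1a is highest (533 CPM) where mesangial markers are highest (8760 CPM), and the DH-LMP2A libraries lie along the bottom of the Agt panel at every tubule level.

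Ace (chromosome 11, 105967945 to 105989964, plus strand, 25 exon blocks) encodes the enzyme that makes angiotensin II. It had 31.7, 58.5, 25.8 and 22.0 CPM in LCDD replicates 1 to 4, 43.9, 50.4, 26.4 and 21.0 CPM in DH-LMP2A replicates 1 to 4, and 48.0, 65.2, 29.5, 30.8 and 51.6 CPM in WT replicates 1 to 5. The 3 genotypes overlapped throughout. In LCDD and DH-LMP2A alike, replicate 2 was highest and replicate 4 lowest. The log2 fold change was -0.04 ± 0.36 in LCDD against DH-LMP2A (SE, edgeR adjusted p = 0.978), -0.38 ± 0.34 in LCDD against WT (adjusted p = 0.786) and -0.34 ± 0.34 in DH-LMP2A against WT (adjusted p = 0.715). With the replicate block these were -0.06 ± 0.22 (SE, edgeR adjusted p = 0.899), -0.86 ± 0.22 (adjusted p = 0.0704) and -0.79 ± 0.22 (adjusted p = 0.0746), none of them called. Its closest patterns over the 13 libraries were those of Gipc3, Lrp4, Gtf2i, Parvb and Fadd (Pearson correlations of 0.90 to 0.92).

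Enpep (chromosome 3, 129269175 to 129332720, minus strand, 19 exon blocks) encodes the aminopeptidase that turns angiotensin II into angiotensin III. It had 348, 712, 2222 and 2063 CPM in LCDD replicates 1 to 4 and 1084, 1795, 2577 and 3083 CPM in DH-LMP2A replicates 1 to 4. WT replicates 1 to 5 had 1008, 2303, 2595, 2942 and 1951 CPM. In each genotype the library of the first title code was the lowest, and the genotypes overlapped. The log2 fold change was -0.68 ± 0.53 (SE) in LCDD against DH-LMP2A (edgeR adjusted p = 0.662, and 0.0664 with the replicate block), -0.69 ± 0.51 in LCDD against WT (adjusted p = 0.708) and -0.02 ± 0.50 in DH-LMP2A against WT (adjusted p = 0.993).

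Podocyte markers are given beside Enpep. The 12 markers, all tested and none at 0, summed to 7929, 14589, 33938 and 28513 CPM in LCDD replicates 1 to 4 and to 18028, 22943, 34324 and 33781 CPM in DH-LMP2A replicates 1 to 4. With their mean log2 CPM as a covariate, a fit chosen after the values were seen, the log2 fold change in LCDD against DH-LMP2A was -0.11 (edgeR adjusted p = 0.806), beside -0.68 without it. The markers are themselves lower in part of the LCDD libraries, and the part of podocyte content in the Enpep values was not tested beyond this fit. The genes most like Enpep over the 13 libraries were Pkp2, Epb41l5, Mgat5, Schip1 and Arhgap24, each with a Pearson correlation of 0.99, and Arhgap24 and Epb41l5 are known podocyte genes. Among the podocyte markers themselves, the median log2 fold change was -0.49 in LCDD against DH-LMP2A and -0.53 against WT, with 0 and 1 of 12 called lower; 0.544% of all genes were called lower against WT. The marker called was Ptpro, a podocyte phosphatase, at 326 CPM in LCDD, 385 CPM in DH-LMP2A and 1426 CPM in WT (LCDD against WT, log2 fold change -2.13, edgeR adjusted p = 0.0176).

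Agtr1a (chromosome 13, 30336441 to 30382867, plus strand, 4 exon blocks) encodes the main mouse receptor for angiotensin II. It had 533, 442, 286 and 472 CPM in LCDD replicates 1 to 4 and 302, 269.8, 287 and 267 CPM in DH-LMP2A replicates 1 to 4. WT replicates 1 to 5 had 278, 304, 379.8, 321 and 409 CPM. LCDD replicates 1, 2 and 4 lay above all 9 libraries of the other genotypes, and LCDD replicate 3 lay among the DH-LMP2A libraries. The log2 fold change against DH-LMP2A was 0.62 ± 0.18 (SE, edgeR adjusted p = 0.112, and 0.0640 with the block, not called in either). By title code in ascending order the difference was 0.82, 0.71, -0.0029 and 0.82 in log2 CPM. Without LCDD replicate 3 the value was 0.78 and was called (edgeR adjusted p = 0.0206). Against WT the log2 fold change was 0.36 ± 0.17 (SE, edgeR adjusted p = 0.446), and DH-LMP2A against WT gave -0.27 ± 0.17 (SE, edgeR adjusted p = 0.557).

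Mesangial markers are given beside Agtr1a. The 10 markers, all tested and none at 0, summed to 8760, 5590, 4902 and 6130 CPM in LCDD replicates 1 to 4, against 3703 to 4513 CPM in DH-LMP2A and 3858 to 4728 CPM in WT. LCDD replicate 3, the one with low Agtr1a, also had the lowest mesangial sum of its genotype. In LCDD against DH-LMP2A, 2 of 10 markers were called higher, Ptn (log2 fold change 1.09, edgeR adjusted p = 0.0334) and Serpine2 (1.29, edgeR adjusted p = 0.0446), and the median was 0.51. Over all genes tested, 1.30% were called higher without the block, and 543 of 16738 higher and 478 lower with it. With the block 4 of 10 markers were called higher and 1 lower, and the one lower was Rgs5, also on the renin-cell list, at 154 against 349 CPM. Cspg4, a pericyte proteoglycan, had 164 CPM in LCDD and 162 CPM in DH-LMP2A. The part of mesangial content in the Agtr1a values was not tested. The closest patterns to Agtr1a were those of Epb41l2, Eif4e3, Kcnd3, Ywhab and Cntn5 (Pearson correlations of 0.90 to 0.93). The second mouse type 1 receptor, Agtr1b, had 0 to 13 counts per library and was not tested, and the type 2 receptor Agtr2 was not tested either.

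Atp6ap2 (chromosome X, 12587801 to 12617049, plus strand, 9 exon blocks) encodes the prorenin receptor and is the steadiest of the 6 genes. Its promoter is shown because its range between libraries was the narrowest. The 250 bases before the RefSeq start site (GRCm38.p6, plus strand, chrX:12587509-12587758) read as follows, 5′ to 3′, with TGACGT in capitals, 62 bases before the start:
Atp6ap2: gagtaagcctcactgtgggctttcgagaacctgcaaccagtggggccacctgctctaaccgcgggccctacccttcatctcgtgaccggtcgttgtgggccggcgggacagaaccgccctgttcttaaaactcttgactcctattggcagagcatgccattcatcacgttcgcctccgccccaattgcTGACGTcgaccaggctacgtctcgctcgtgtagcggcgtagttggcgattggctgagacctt
No TATAAA was found in this window. In windows not shown, TATAAA was found on the other strand for Ace, 31 bases before the first of its 2 starts. It was also there for Enpep, 52 bases before the start. A link between these letters and the variation between libraries was not tested.

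Atp6ap2 had 113, 71.5, 72.0 and 81.1 CPM in LCDD replicates 1 to 4, 87.7, 79.3, 73.3 and 83.0 CPM in DH-LMP2A replicates 1 to 4, and 91.3, 59.2, 95.8, 87.3 and 83.1 CPM in WT replicates 1 to 5. The means were 84.5 ± 19.8, 80.9 ± 6.10 (SD, n = 4 each) and 83.4 ± 14.3 CPM (SD, n = 5), and the genotypes overlapped. The log2 fold change was 0.06 ± 0.17 in LCDD against DH-LMP2A (SE, edgeR adjusted p = 0.913), 0.02 ± 0.16 in LCDD against WT (adjusted p = 0.986; the sign turned with other size factors, to -0.0083) and -0.04 ± 0.16 in DH-LMP2A against WT (adjusted p = 0.938). Its closest patterns were those of Mob4, Slc25a46, Fkbp3, Rnf139 and Bnip3l (Pearson correlations of 0.95 to 0.97).

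The other V-ATPase subunits, a list of 15 that were all tested, had a median log2 fold change of 0.01 in LCDD against DH-LMP2A. Of the 15, 1 was called lower and 0 higher, against 0.693% and 1.30% of all genes. That one was Atp6v0c, the proton-carrying ring subunit, at 15.3 ± 1.99 CPM in LCDD and 37.0 ± 13.3 CPM in DH-LMP2A (SD, n = 4 each), so that edgeR gave a log2 fold change of -1.27 ± 0.28 (SE; adjusted p = 0.0363, and 0.0116 with the block). Its 4 LCDD libraries had 13.2 to 18.0 CPM and DH-LMP2A replicate 1 had 17.4 CPM, so the groups overlapped by 1 library. Atp6v0c has processed pseudogenes, and how shared reads were counted is not stated, so its value is uncertain. The most abundant subunits, Atp6ap1, Atp6v1a and Atp6v1e1, had log2 fold changes of 0.05, 0.0040 and 0.03 in this comparison, none of them called.

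Both genotypes were also compared with WT. In LCDD against WT, edgeR called 0 of 6 (1.84% of all genes), 0 of 6 had an unadjusted p under 0.05 (12.0% of all genes), and DESeq2 called 0 of 6 (742 of 19640 genes). No gene of the 6 had groups that did not overlap (4.59% of all genes). In DH-LMP2A against WT, edgeR called 0 of 6 (0.627% of all genes) and 2 of 6 had an unadjusted p under 0.05, Ren1 and Agt (12.5% of all genes). Of all genes, 0.275% were called higher and 0.352% lower. DESeq2 called 1 of 6, Agt (474 of 19116 genes), and again no gene of the 6 had groups that did not overlap (4.97% of all genes). With the title code as a replicate block, which for WT is only a shared number, 0 of 6 were called in LCDD against WT (3.20% of all genes) and 1 of 6, Agt, in DH-LMP2A against WT (3.36%). In these edgeR fits Agt passed the filter only through the LCDD libraries.

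For Ren1, LCDD against WT gave -0.69 ± 0.43 on the log2 scale (edgeR SE; adjusted p = 0.617), and DH-LMP2A against WT gave 1.17 ± 0.43 (edgeR SE; adjusted p = 0.277). DH-LMP2A replicates 1, 2 and 4 were above all 5 WT libraries, and DH-LMP2A replicate 3, at 204 CPM, was below WT replicate 1. The 3 comparisons share libraries, so they are not independent of each other. In both comparisons with WT, genotype moved with sex composition, which also differed within the pairs of LCDD and DH-LMP2A libraries. Kap, an androgen-induced gene of the proximal tubule, had 46.6 ± 36.9 CPM in WT (SD, n = 5), 330 ± 151 CPM in LCDD and 673 ± 510 CPM in DH-LMP2A (SD, n = 4 each). Kap is among the proximal tubule markers used above.

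The rest of the angiotensin pathway was read from a list of 20 processing enzymes and receptors, of which 12 were tested. None was called in any of the 3 comparisons by edgeR. In LCDD against DH-LMP2A, LCDD against WT and DH-LMP2A against WT, 0, 1 and 1 of 12 had an unadjusted p under 0.05. Over all genes these shares were 13.1%, 12.0% and 12.5%. With the replicate block 1 of 12 was called lower in LCDD against DH-LMP2A, beside 478 of all 16738 genes. That one was Anpep, aminopeptidase N, which acts on angiotensin III, at 9.51 against 15.2 CPM (edgeR adjusted p = 0.0336 with the block). The median log2 fold changes were -0.07, -0.03 and -0.03 for LCDD against DH-LMP2A, LCDD against WT and DH-LMP2A against WT. Those of all genes tested were -0.0061, 0.01 and 0.00089. Mme (neprilysin, which makes angiotensin 1-7 and is on podocytes) had 175 ± 106, 235 ± 91.1 (SD, n = 4 each) and 278 ± 103 CPM (SD, n = 5) in LCDD, DH-LMP2A and WT. Ctsa, a lysosomal carboxypeptidase, had 177, 179 and 174 CPM, and Klk1, tissue kallikrein of the distal nephron, 72.2, 165 and 137 CPM. Mas1, the angiotensin 1-7 receptor, and the mast cell proteases Cma1, Mcpt4 and Cpa3 were among the 8 genes that did not pass the filter.

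Genes known to respond to type 1 receptor signalling, a list of 14 that were all tested, were read last. The median log2 fold change of the list was 0.62 in LCDD against DH-LMP2A and 0.37 in LCDD against WT, and 0.14 in DH-LMP2A against WT. By edgeR, 0 of 14 were called in LCDD against DH-LMP2A, and 0 with the block. There 4 of 14 had an unadjusted p under 0.05, against 13.1% of all genes. In LCDD against WT 1 of 14 was called higher, where 1.30% of all genes were, and with the replicate block 0 of 14 were called. An unadjusted p under 0.05 was found for 5 of 14 in LCDD against WT, against 12.0% of all genes. Ctgf, connective tissue growth factor, had 3266 ± 812 CPM in LCDD, 1967 ± 298 in DH-LMP2A (SD, n = 4 each) and 1789 ± 427 in WT (SD, n = 5), and was not called (edgeR adjusted p = 0.167 against DH-LMP2A and 0.0778 against WT). Sgk1 and Rgs2, a kinase and a G protein regulator, were not called in any comparison. These genes respond to many signals besides angiotensin II.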

How the data were processed

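Messenger RNA of purified glomeruli was sequenced from 13 libraries of 3 genotypes. Per the labels' protocols, mRNA was selected by its poly(A) tail and sequenced strand-specifically and paired-end. The authors deposited raw read counts per gene; per the submitters' processing notes, STAR 2.4.0a, featureCounts, Subread 1.5.0-p3, DESeq2 and the builds mm10 and GRCm38 were named, without roles. Strand setting, multi-mapping and annotation release are not given in the sources used here. The deposited summed exon length (a score in bases, per the file headers) gave RPKM.

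Replicates are numbered in order of deposition; nothing says beyond the labels that libraries are separate animals, so p-values measure the spread between these libraries. edgeR 4.0.16 in R 4.3.3 fitted all 13 libraries (filterByExpr, minimum count 10, TMM factors, quasi-likelihood test, Benjamini-Hochberg over 16738 genes, called at an adjusted p under 0.05). Values are TMM-scaled CPM; log2 CPM uses a prior count of 2. SE is the log2 fold change over the root of F. The floor is 3 counts, or 0.0971 to 0.185 CPM.

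Same-code libraries of LCDD and DH-LMP2A deviated together from their genotype means, with correlations across genes of 0.153 to 0.593 in 4 of 4 pairs, so the title code was taken to pair them. The mean was 0.421 for same-code and -0.139 for other pairs, and 3 of 4 LCDD libraries correlated best with their own code. Deviations from a genotype's mean cancel, so a positive same-code mean brings a negative mean for the other pairs. The negative value is therefore no separate evidence of pairing. LCDD replicate 2 had 0.524 with DH-LMP2A replicate 1, against 0.153 with its own code. LCDD replicate 3 had 0.458 with DH-LMP2A replicate 4, and LCDD replicate 4 had 0.419 with DH-LMP2A replicate 3. Alternatives were DESeq2 1.42.0, RLE factors, other filters, covariates, the block and leaving out libraries. The edgeR step was tested on simulated data.

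The 6 genes and the gene lists were chosen with earlier results of these data known. Named genes were the 6; from each pathway list, those called without the block and the 3 of highest mean CPM; and the 5 genes alike, ranked by Pearson correlation where mean CPM was 1 or more, predicted genes left out. Genes outside this rule are said to be named after their values were seen, or are single markers and undetected receptors named for their role. Spans of the 6 genes equal those of GENCODE M21. Values of 1 gene called in a pathway list are not reported here.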

Additional observations from a re-analysis of the deposited data

Results flagged for a closer look

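Each of the 6 genes and 3 marker lists was screened within each genotype for a library whose gap to its nearest neighbour took up most of the genotype's range (Dixon's criterion at 95%). On the linear scale 3 of 27 groups of values had such a library, where chance gives about 1.35, and on the log2 scale 0 of 27 had one. Agt was 5.69 CPM in WT replicate 1, against 0.0447 to 0.803 CPM in the other 4 WT libraries. The summed proximal tubule markers were 3494 CPM in the same library, against 126 to 521 CPM in the others. The summed mesangial markers were 4513 CPM in DH-LMP2A replicate 1, against 3703 to 3798 CPM in the other 3 libraries of that genotype.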

How the results depend on the processing

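No call among the 6 genes was lost under an alternative, since none was made without the block; some were gained. In LCDD against DH-LMP2A, where 334 of 16738 genes were called in all, DESeq2 called 3 of the 6 (823 of 19116 genes). The block, the tubule covariate, and both together called 2 each (1021, 943 and 656 of 16738 genes). The fit of only these genotypes (213 of 16273 genes), the fit without the 3 single-mouse WT libraries (223 of 17316) and the Y-linked covariate with the block (755 of 16738, chosen after seeing the data) called 1 each. Leaving out 1 replicate gave 0 to 1 (413 of 16988 genes without LCDD replicate 3). In DH-LMP2A against WT, where 105 of 16738 genes were called in all, 1 of the 6 (Agt) was called by DESeq2 (474 of 19116 genes) and without the single-mouse WT libraries (69 of 17316). It was also called with the replicate block, the tubule covariate, both, and the podocyte covariate (562, 532, 60 and 654 of 16738 genes; the last chosen after seeing the data). Without the 5 libraries of the first 2 title codes, also chosen after seeing the data, none was called, and Ren1 in LCDD against DH-LMP2A had an edgeR adjusted p of 0.384. For comparisons with WT the title code is only a shared number: 4 of 5 same-code pairs correlated above 0.1, 2 of 4 LCDD and 2 of 4 DH-LMP2A libraries correlated best with a WT library of their own code. There the replicate block gave Agt -4.31 in DH-LMP2A against WT (edgeR adjusted p = 0.0366) and changed no other call among the 6 genes.

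Agt has no value under the 5 CPM filter, nor in DH-LMP2A against WT when only those genotypes were fitted, since it did not pass the filter there; those counts cover 5 genes. The log2 fold changes whose sign turned are given next; none of them was called, and the cause was not tested. With RLE factors, the value was -0.00832 for Atp6ap2 in LCDD against WT. With no filter on low counts, the value was -0.0121 for Atp6ap2 in LCDD against WT. With DESeq2, the value was -0.00682 for Atp6ap2 in LCDD against WT. With the title code as a replicate block, the value was 0.0285 for Agt in LCDD against WT, 0.30 for Enpep in DH-LMP2A against WT and 0.0374 for Atp6ap2 in DH-LMP2A against WT. Without the 3 single-mouse WT libraries, the value was 0.35 for Enpep in DH-LMP2A against WT and 0.0752 for Atp6ap2 in DH-LMP2A against WT. With proximal tubule markers as a covariate, the value was 0.13 for Ace in LCDD against DH-LMP2A, -0.0438 for Atp6ap2 in LCDD against WT and 0.92 for Enpep in DH-LMP2A against WT. With Y-linked genes as a covariate, the value was 0.0629 for Ace in LCDD against DH-LMP2A, 0.56 for Agt in LCDD against WT, 0.00219 for Agtr1a in DH-LMP2A against WT and 0.29 for Atp6ap2 in DH-LMP2A against WT. With proximal tubule markers as a covariate with the replicate block, the value was 0.27 for Enpep in DH-LMP2A against WT and 0.11 for Atp6ap2 in DH-LMP2A against WT. With Y-linked genes as a covariate with the replicate block, the value was 0.90 for Agt in LCDD against WT, 0.55 for Enpep in DH-LMP2A against WT and 0.0748 for Atp6ap2 in DH-LMP2A against WT. Without the 5 libraries of the first 2 title codes, the value was 0.0244 for Ace in LCDD against DH-LMP2A, -0.0191 for Atp6ap2 in LCDD against DH-LMP2A, 0.91 for Agt in LCDD against WT, -0.0998 for Atp6ap2 in LCDD against WT and 0.19 for Enpep in DH-LMP2A against WT. With podocyte markers as a covariate, the value was -0.0902 for Atp6ap2 in LCDD against DH-LMP2A, 0.0478 for Enpep in LCDD against WT, -0.17 for Atp6ap2 in LCDD against WT and 0.16 for Enpep in DH-LMP2A against WT. Leaving out 1 replicate at a time gave -0.45 to 0.19 for Ace in LCDD against DH-LMP2A, -0.11 to 0.13 for Atp6ap2 in LCDD against DH-LMP2A, -0.54 to 1.72 for Agt in LCDD against WT, -0.16 to 0.0880 for Atp6ap2 in LCDD against WT and -0.25 to 0.20 for Enpep in DH-LMP2A against WT. The depth of 16687509 to 30587890 counts limits Agt, at 0 to 3 counts in DH-LMP2A, and not the other 5 genes, at 462 counts or more.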

Other observations

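Vasoactive peptide genes that oppose or parallel angiotensin were also measured. Of 11 kinin, natriuretic and endothelin genes, 6 were tested, and none was called in any of the 3 comparisons by edgeR. In LCDD against DH-LMP2A, LCDD against WT and DH-LMP2A against WT, 0, 1 and 1 of 6 had an unadjusted p under 0.05. Over all genes these shares were 13.1%, 12.0% and 12.5%. The median log2 fold changes were -0.02, 0.01 and -0.05. Npr1, the receptor for atrial natriuretic peptide, had mean levels of 569 (LCDD), 544 (DH-LMP2A) and 678 (WT) CPM, and Npr3, the clearance receptor, had 537, 478 and 553 CPM. Ednrb, the endothelin B receptor, had 120, 153 and 192 CPM. The bradykinin receptors Bdkrb1 and Bdkrb2 did not pass the filter.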
